A study of Mus musculus with 12 samples.

Results

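The genes described are 37 glomerular endothelial identity genes, a named list that was looked up by gene symbol. The list was chosen with earlier results of these data known, so its shares and medians beside those of all genes are description only. All 37 were among the 26264 gene symbols of the count tables, and all 37 had enough counts to be tested. They were read in RNA from isolated glomeruli of male mice of 2 substrains of the BALB/c laboratory strain, BALB/cAjcl (here Ajcl) and BALB/cByJcl (here ByJcl), all obtained at 8 weeks of age. The Ajcl and ByJcl baseline groups are described as untreated, and the other groups were killed at Day 5 after adriamycin (ADR, doxorubicin, an anthracycline that injures podocytes in susceptible mice), given as 1 intravenous retro-orbital dose of 10 mg/kg under isoflurane. There were 3 libraries in each of these 4 groups. Saline is also described for control mice, and the baseline libraries are elsewhere named as controls, so whether these mice had an injection is unclear. Baseline and Day 5 counts come in separate tables as well, so ADR, injection and any difference between the tables cannot be told apart. No engineered allele is named for any group. The labels do not say whether a library is 1 mouse or a pool, and p-values measure the spread between these libraries.

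The endothelium of the glomerulus lines the capillaries across which plasma is filtered. Its cells are thin and pierced by open fenestrae, and they depend on VEGF that podocytes secrete on the other side of the basement membrane. Such cells are recognised by junction proteins shared with all endothelium, by receptors for vasoactive peptides and lipids, by membrane trafficking proteins such as EHD3 that are enriched in this capillary bed, and by ETS, SOX, KLF and GATA transcription factors that keep endothelial genes active. The 37 genes comprised 8 junction and surface glycoproteins, 9 receptors including 1 receptor phosphatase, 3 secreted or matrix-associated proteins, 4 trafficking and small GTPase adaptors, and 13 transcription factors and cofactors.

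Total counts per library lay between 42198416 and 54687045. Glomeruli were collected with magnetic beads that lodge in the capillaries after perfusion, so the RNA is a mixture of endothelial, podocyte, mesangial and some tubular RNA, and fewer endothelial cells and less RNA per cell cannot be told apart. Ajcl Day 5 replicate 1 was left out of the fit because the study sets it aside for low glomerular purity. Its proximal tubule markers summed to 2991 CPM (counts scaled to a common library total), against 1245 to 1701 in the other Ajcl Day 5 libraries, and its podocyte markers to 9179 against 10200 to 14840. Among the libraries kept, Ajcl baseline replicate 3 had a proximal tubule sum of 3065 CPM, and ByJcl Day 5 replicates 2 and 3 had podocyte sums of 7131 and 8020 CPM. The 37 genes and the podocyte markers were counted in every library. Of the other lists, 4 of 5 erythroid markers and the lymphatic gene Ccl21a were listed at 0 in every library, and the venous gene Selp and the mural gene Ren1 in some. Levels below are CPM scaled by TMM, and group means leave that library out unless it is named.

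Levels were set against transcript length to compare the genes with one another. In Ajcl at baseline, Ehd3 stood first with 622.7 CPM per kb of its canonical transcript, followed by the TGF-beta coreceptor Eng (428.8), the sialomucin Emcn (340.5), the flow-responsive factor Klf2 (291.0), the secreted factor Egfl7 (261.5) and the tight junction protein Cldn5 (218.1). Tal1, a basic helix-loop-helix factor, was lowest with 6.65 CPM per kb. The order in ByJcl at baseline opened with the same genes, Ehd3 at 714.8 and Eng at 506.7 CPM per kb. At Day 5 in ByJcl, Eng (527.4) stood above Ehd3 (411.2) and Egfl7 (405.0), Cldn5 stood 22nd with 76.6 after 6th with 240.3 at baseline, and Plvap, which forms the diaphragms of fenestrae and caveolae, stood 15th with 90.7 after 25th with 46.2 at baseline. Neighbours in these orders often lay within the spread of the libraries, for the median coefficient of variation of a member was 7.61% in Ajcl at baseline, 10.6% in ByJcl at baseline and 20.8% in ByJcl at Day 5. In Ajcl at Day 5 it was 9.07% over the 2 libraries kept and 16.4% over all 3.

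**Figure D1:**
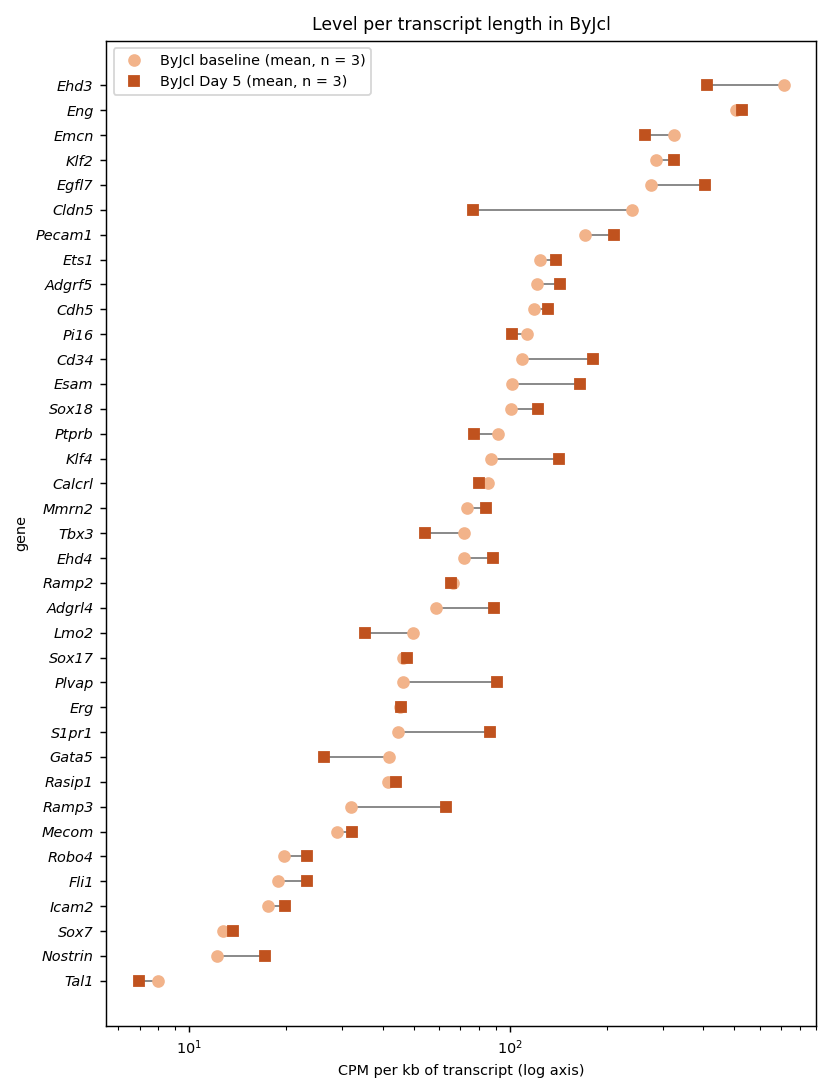
Mean level of each of the 37 genes in ByJcl at baseline (circles) and Day 5 (squares), in CPM per kb of canonical transcript on a log axis, n = 3 libraries each. Ehd3 moved from 714.8 to 411.2 and Cldn5 from 240.3 to 76.6, whereas Eng, Erg and Ramp2 stayed close to their baseline values.

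Summed over the 37 genes, the level was 13190, 14350 and 14170 CPM in the Ajcl baseline libraries and 13790 and 14340 CPM in the 2 Ajcl Day 5 libraries kept, with 11990 CPM in the library left out. It was 14940, 16230 and 14430 CPM in ByJcl at baseline and 16910, 13410 and 15140 CPM in ByJcl at Day 5. The baseline and Day 5 sums of ByJcl overlapped, with means of 15200 ± 927 CPM (SD, n = 3) and 15150 ± 1748 CPM (SD, n = 3). Of the 5 role groups, the junction, receptor, secreted and transcription factor sums overlapped between baseline and Day 5 in ByJcl. The trafficking sum alone did not, going from 3103, 3527 and 2877 CPM to 2564, 1672 and 2182 CPM, and it was mostly Ehd3. Without Ehd3 the sum of the other 3 went the other way, from 466.8 to 512.0 CPM at baseline to 546.0 to 628.1 CPM at Day 5.

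**Figure D2:**
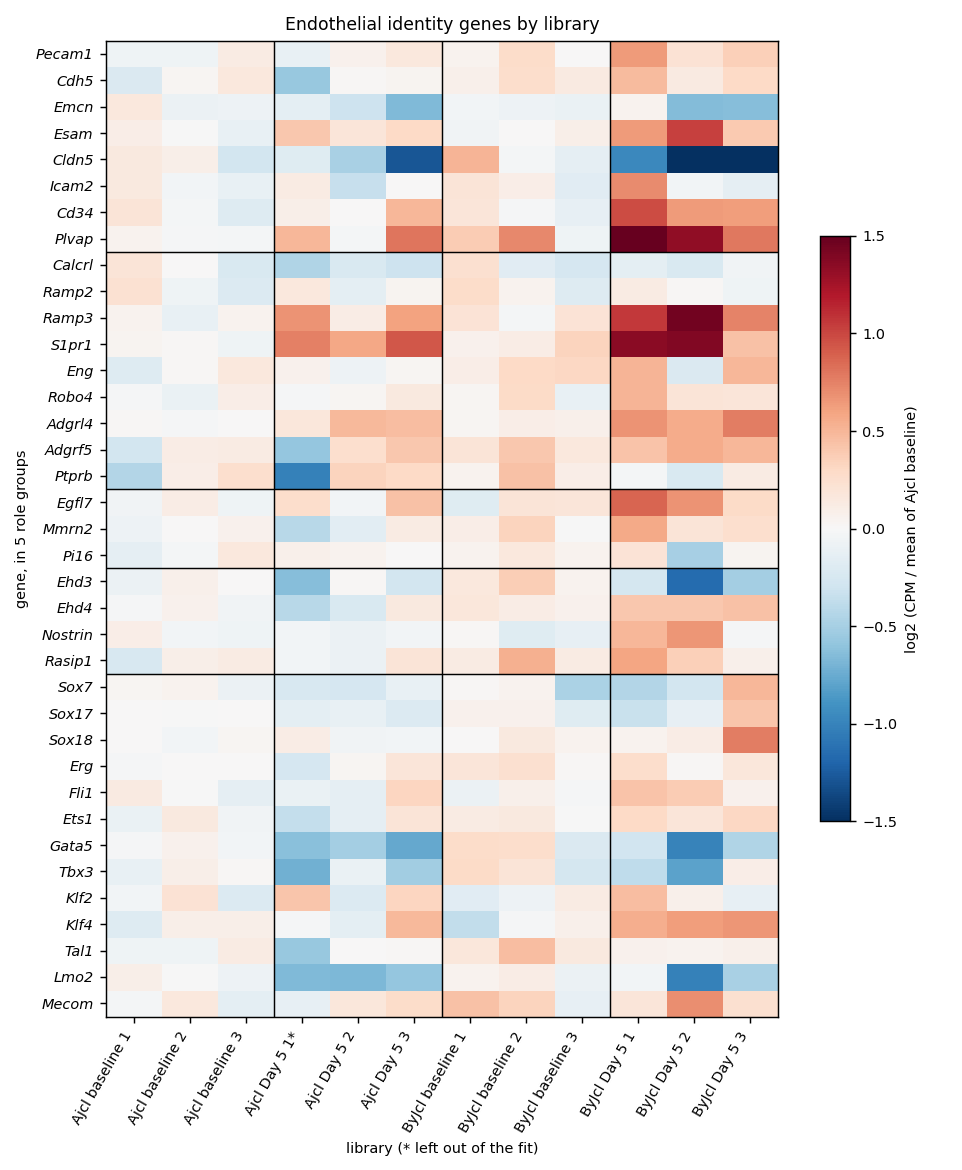
Level of each gene (rows, in the 5 role groups) in each of the 12 libraries (columns), as log2 of its CPM over the Ajcl baseline mean. Values beyond 1.5 in either direction take the end colour of the scale, as Cldn5 does in ByJcl Day 5 replicates 2 and 3, and the asterisk marks the library left out of the fit.

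To examine the ADR response of these genes, Day 5 was compared with baseline within each substrain by edgeR's quasi-likelihood test, adjusted by Benjamini-Hochberg over 17002 genes. In ByJcl, 10 of the 37 genes were called at an adjusted p below 0.05, against 10.6% of all genes tested. Of these, 7 rose, against 5.75% of all genes, and 3 fell, against 4.83%. The 7 that rose were Ramp3, Plvap, S1pr1, Cd34, Klf4, Esam and Adgrl4, and the 3 that fell were Cldn5, Ehd3 and Gata5. The other 27 were not called. The median log2 fold change (log2FC) was 0.16 over the 37 genes and 0.01 over all genes. Baseline and Day 5 libraries did not overlap in ByJcl for 11 members that were higher and 4 that were lower at Day 5, in a comparison where this held for 18% and 15.1% of all genes. Over the same libraries the 8 podocyte markers all fell, from summed levels of 18070 to 20860 CPM down to 7131 to 10810 CPM, and since CPM are shares of a library the part of this in the values below was not tested.

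Among the junction and surface glycoproteins, 3 of 8 rose and 1 fell in ByJcl by edgeR (50%, against 10.6% of all genes). The one that fell was Cldn5, the claudin that seals endothelial tight junctions, with the greatest change of the list. Its level was 438.5, 301.5 and 280.6 CPM at baseline and 158.4, 77.6 and 89.5 CPM at Day 5 (log2FC = -1.67, SE 0.29, adjusted p = 0.00652), or 3.17-fold lower, with no overlap. This log2FC lay within the range of the 8 podocyte markers in ByJcl (-1.68 to -0.92), and the part of podocyte RNA in the values of Cldn5 was not tested. Plvap had 96.7, 122.6 and 71.4 CPM at baseline and 255.3, 186.7 and 128.3 CPM at Day 5. The Day 5 libraries all stood higher, although the lowest of them was close to the highest at baseline (log2FC = 0.95, SE 0.27, adjusted p = 0.0470). The sialomucin Cd34 had 300.5, 260.2 and 243.0 CPM at baseline and 522.2, 410.4 and 409.1 CPM at Day 5 (log2FC = 0.72, SE 0.17, adjusted p = 0.0201). The junctional adhesion molecule Esam went from 183.3, 191.1 and 201.8 CPM to 296.4, 388.9 and 250.5 CPM (log2FC = 0.68, SE 0.15, adjusted p = 0.0150). For both genes every Day 5 library lay above every baseline library. The general endothelial markers of the same group were not called. Pecam1 had 601.6, 706.2 and 582.2 CPM at baseline and 902.4, 677.9 and 747.2 CPM at Day 5 (adjusted p = 0.176). The cadherin Cdh5 had 448.3, 513.4 and 469.6 CPM against 592.9, 469.1 and 525.6 CPM (adjusted p = 0.525), and Emcn had 869.5, 847.0 and 835.3 CPM against 927.2, 570.1 and 573.1 CPM (adjusted p = 0.287). In each of these 3 genes the groups overlapped, and in Emcn ByJcl Day 5 replicate 1 stood apart from the other 2. Without that library Emcn was called (adjusted p = 0.0271).

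Of the 9 receptors, 3 rose and none fell in ByJcl by edgeR (33.3%, against 10.6% of all genes). Ramp3, an accessory protein that sets the ligand of the calcitonin receptor-like receptor, had 41.9, 35.5 and 41.9 CPM at baseline and 75.8, 98.7 and 61.0 CPM at Day 5 (log2FC = 0.97, SE 0.18, adjusted p = 0.00775). Its partner receptor Calcrl had a log2FC of -0.11 and the sister protein Ramp2 one of -0.04, and neither was called (adjusted p = 0.694 and 0.890). Expression of S1pr1, the sphingosine 1-phosphate receptor that supports the endothelial barrier, was 126.4, 130.4 and 152.7 CPM at baseline and 308.4, 317.1 and 164.2 CPM at Day 5 (log2FC = 0.93, SE 0.21, adjusted p = 0.0194). All 3 Day 5 libraries were higher, with replicate 3 just above the highest baseline library. The adhesion receptor Adgrl4 had the smallest p of the list, with 233.9, 246.5 and 242.8 CPM at baseline and 364.8, 337.8 and 392.1 CPM at Day 5 (log2FC = 0.58, SE 0.09, adjusted p = 0.00341). The remaining receptors, Eng, Robo4, Adgrf5 and the phosphatase Ptprb, were not called, with log2FC between -0.26 and 0.22.

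Of the 4 trafficking and adaptor genes, edgeR called Ehd3 alone in ByJcl (25%, against 10.6% of all genes), and DESeq2 also called Nostrin. Ehd3 had 2607, 3015 and 2410 CPM at baseline and 1936, 1050 and 1636 CPM at Day 5 (log2FC = -0.81, SE 0.20, adjusted p = 0.0271), or 1.76-fold lower, with no overlap. With all 12 libraries in the fit its adjusted p was 0.0524. Its paralog Ehd4 had the opposite sign, with 279.0, 266.9 and 257.5 CPM at baseline and 326.2, 327.6 and 334.4 CPM at Day 5, but did not pass the test (adjusted p = 0.128). Nostrin, which binds the endothelial nitric oxide synthase, had 96.8, 84.4 and 88.2 CPM at baseline and 135.5, 151.6 and 94.4 CPM at Day 5 (log2FC = 0.49, adjusted p = 0.0581 by edgeR and 0.0207 by DESeq2), and replicate 3 at Day 5 lay within the baseline values. Without that library edgeR called it too (adjusted p = 0.00723). Of the 3 secreted genes, edgeR called none and DESeq2 called Egfl7, with 336.6, 436.7 and 431.5 CPM against 696.0, 610.5 and 466.1 CPM (log2FC = 0.54, adjusted p = 0.0740 by edgeR and 0.0218 by DESeq2). Without Day 5 replicate 3 its edgeR adjusted p was 0.0307.

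Of the 13 transcription factors and cofactors, 1 rose and 1 fell in ByJcl by edgeR (15.4%, near the 10.6% of all genes). Klf4, a zinc-finger factor that flow induces, had 218.6, 278.6 and 296.5 CPM at baseline and 411.6, 435.7 and 445.0 CPM at Day 5 (log2FC = 0.69, SE 0.17, adjusted p = 0.0284). The related Klf2 overlapped between the groups (log2FC = 0.18, adjusted p = 0.600). Gata5, a GATA factor enriched in glomerular endothelium, had 155.4, 154.8 and 111.0 CPM at baseline and 105.1, 64.4 and 94.3 CPM at Day 5 (log2FC = -0.69, SE 0.18, adjusted p = 0.0333). The highest Day 5 library was just below the lowest at baseline. Tbx3, a T-box factor of the same capillary bed, had 423.3, 397.8 and 288.4 CPM against 266.0, 199.7 and 371.6 CPM and was not called (log2FC = -0.42, adjusted p = 0.250). The LIM-domain cofactor Lmo2 had 93.5, 97.3 and 84.4 CPM against 87.2, 44.5 and 63.9 CPM (log2FC = -0.51, adjusted p = 0.108), and was called without Day 5 replicate 1, its highest Day 5 library (adjusted p = 0.0124 by edgeR). Erg, an ETS factor required for endothelial identity, had 147.9, 153.5 and 132.4 CPM at baseline and 155.9, 131.7 and 146.7 CPM at Day 5, with a difference near 0 (log2FC = -0.01, SE 0.10, adjusted p = 0.953) whose sign depended on the scaling. The other ETS factors Fli1 and Ets1 and the SOX factors Sox7, Sox17 and Sox18 were not called either.

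**Figure D3:**
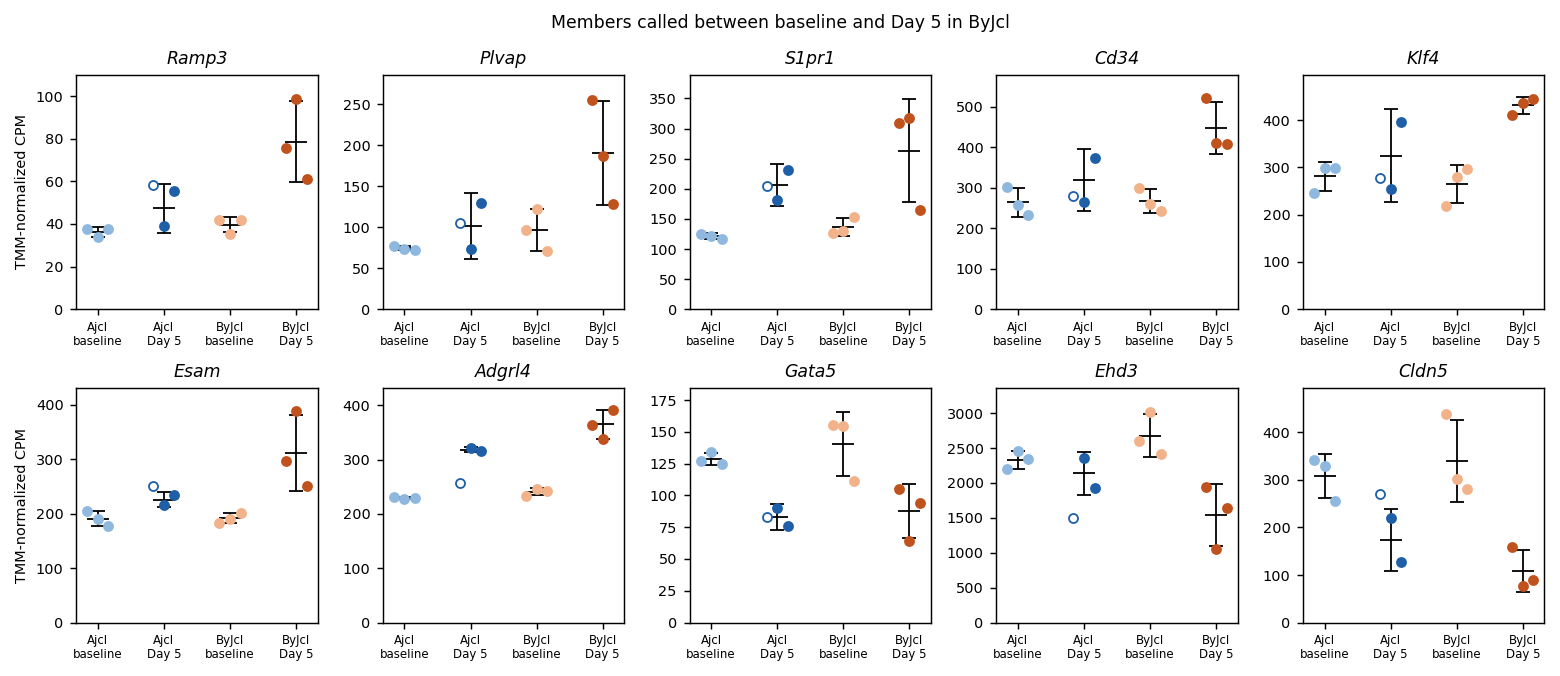
TMM-normalized CPM in every library of the 10 genes called between baseline and Day 5 in ByJcl. Filled points are libraries in the fit, the open point is the library left out, and bars are the mean and SD of the filled points (n = 3, or 2 for Ajcl at Day 5). The 3 ByJcl Day 5 points lie on 1 side of the 3 ByJcl baseline points in all 10 panels.

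How firmly these 10 calls held differed. Cldn5, Ramp3 and Adgrl4 stayed below 0.05 in all 19 alternative fits, Esam and Cd34 in 17, S1pr1 in 16, Klf4 and Gata5 in 15, Ehd3 in 14 and Plvap in 10. None of the 10 changed sign in any of them. The number of members called fell to 4 without ByJcl baseline replicate 1, to 3 without ByJcl baseline replicate 2 and to 5 without ByJcl Day 5 replicate 2. In these fits the number of all genes called fell as well, from 1800 to 841, 730 and 680 in that order. Without ByJcl Day 5 replicate 3, 8 members rose and 1 fell. Without ByJcl Day 5 replicate 1, 6 rose and 5 fell. With DESeq2, 9 members were called as higher and 3 as lower, in a test that called 8.95% and 6.9% of all genes in these directions.

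Promoter windows were read for the called genes, since they moved in both directions. RefSeq windows of 300 bases (250 before and 50 after each annotated start, GRCm38.p6) were matched for 21 of the 37 genes, with 28 windows in all. Windows of Esam, Plvap and S1pr1 were not analysed here. The 250 bases before the start are shown for the 3 genes that fell and for the receptors Adgrl4 and Ramp3, whose calls held in every fit. Capitals mark the letters GGAAG on either strand, a form of ETS site that extends the core GGAA by 1 base.
Cldn5, chr16:18776597-18776846, plus strand: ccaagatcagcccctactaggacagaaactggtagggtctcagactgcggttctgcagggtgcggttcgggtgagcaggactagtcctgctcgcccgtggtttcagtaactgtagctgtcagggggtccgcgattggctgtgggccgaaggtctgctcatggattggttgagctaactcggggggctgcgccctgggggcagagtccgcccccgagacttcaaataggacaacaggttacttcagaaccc
Ehd3, chr17:73804591-73804840, plus strand: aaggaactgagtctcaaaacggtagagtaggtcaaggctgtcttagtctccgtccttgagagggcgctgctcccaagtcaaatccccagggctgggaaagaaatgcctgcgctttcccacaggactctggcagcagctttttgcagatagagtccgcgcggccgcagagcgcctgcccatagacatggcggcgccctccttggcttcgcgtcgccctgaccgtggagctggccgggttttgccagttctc
Gata5, chr2:180334680-180334929, minus strand: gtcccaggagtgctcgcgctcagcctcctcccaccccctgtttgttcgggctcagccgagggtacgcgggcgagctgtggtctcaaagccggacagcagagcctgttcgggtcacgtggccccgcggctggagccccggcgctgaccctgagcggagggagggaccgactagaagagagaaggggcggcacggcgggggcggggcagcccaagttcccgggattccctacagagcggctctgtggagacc
Adgrl4, chr3:151437632-151437881, plus strand: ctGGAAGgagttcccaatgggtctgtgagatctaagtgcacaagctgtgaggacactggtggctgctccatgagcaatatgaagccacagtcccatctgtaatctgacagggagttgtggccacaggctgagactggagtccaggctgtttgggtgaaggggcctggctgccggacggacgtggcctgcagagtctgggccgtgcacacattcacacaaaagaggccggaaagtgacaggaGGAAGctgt
Ramp3, chr11:6658283-6658532, plus strand: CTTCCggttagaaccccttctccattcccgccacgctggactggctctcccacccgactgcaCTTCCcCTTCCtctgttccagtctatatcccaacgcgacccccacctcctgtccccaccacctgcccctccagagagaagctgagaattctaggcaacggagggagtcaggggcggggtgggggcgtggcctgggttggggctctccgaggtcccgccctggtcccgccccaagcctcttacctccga
Over the whole windows, searched on both strands, these letters occurred in 22 of the 28 member windows (78.6%) and in 71.4% of all 32851 windows. They occurred in 4 of 4 windows of members that rose and in 2 of 3 windows of members that fell, the matches of Ehd3 and Gata5 lying in the 50 bases after the start and so not in the lines above. In the part before the start they occurred in 4 of 4 and 0 of 3, against 64.1% of all windows. The narrower part was taken for printing after the matches in the whole windows had been seen, so the contrast between those 2 counts rests on that choice. It does not hold for the core alone, which was added later still and overlaps the longer form. The letters GGAA occurred before the start in 4 of 4 windows of members that rose and in 2 of 3 of members that fell, against 93.4% of all windows, with matches in Ehd3 and Gata5 and none in Cldn5. In whole windows they occurred in 96.4% of member windows and 96% of all. The letters CCACCC, bound by KLF factors, occurred in 35.7% of member windows and 31.5% of all whole windows on either strand. The letters AACAAT of SOX sites occurred in 10.7% of both, and AGATAA, the letters of GATA-factor sites, in 7.14% and 11.2%.

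In Ajcl, no member was called by edgeR between baseline and Day 5, in a comparison that called 0.312% of all genes. The lowest adjusted p of a member was 0.0874 and 7 members had an unadjusted p below 0.05. DESeq2, which called 1.77% of all genes, called 1 member, Adgrl4. Only 2 Day 5 libraries entered this comparison. The median log2FC was 0.04 over the 37 genes and -0.01 over all. With single libraries left out the member median ranged from -0.09 to 0.15, so its sign was not settled. Libraries did not overlap for 8 members higher and 8 lower at Day 5, where this held for 13.4% and 12.5% of all genes (25.9% in either direction). With the third Day 5 library included these were 4 and 6 members, against 6.75% and 6.62% of all genes. Adgrl4 had 231.4, 227.3 and 229.7 CPM at baseline and 322.1 and 315.2 CPM at Day 5 (log2FC = 0.49, SE 0.10, adjusted p = 0.0874 by edgeR and 0.000274 by DESeq2), with 257.3 CPM in the library left out. All of the Day 5 libraries were above all at baseline. S1pr1 had 125.0, 122.4 and 115.9 CPM at baseline and 181.7 and 231.5 CPM at Day 5 (log2FC = 0.78, SE 0.23, adjusted p = 0.254), with 204.5 CPM in the library left out. Adgrf5 had 715.9, 941.7 and 950.3 CPM at baseline and 1034 and 1152 CPM at Day 5 (log2FC = 0.34, SE 0.15, adjusted p = 0.484), but 583.1 CPM in the library left out, below all of the baseline.

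Of the general endothelial markers in Ajcl, Emcn was lower at Day 5 without overlap, with 993.5, 840.0 and 845.0 CPM at baseline and 717.7 and 565.3 CPM at Day 5 (log2FC = -0.47, SE 0.20, adjusted p = 0.486), and had 806.1 CPM in the library left out. Pecam1 had 555.9, 556.5 and 632.9 CPM and then 608.3 and 651.8 CPM, with 536.7 CPM in the library left out (log2FC = 0.13, adjusted p = 0.834). Cdh5 had 367.9, 433.4 and 477.3 CPM and then 429.8 and 438.5 CPM, with 286.9 CPM in the library left out (log2FC = 0.04, adjusted p = 0.954). Both genes overlapped. Erg had 129.0, 130.5 and 131.3 CPM and then 133.2 and 148.0 CPM (log2FC = 0.12, adjusted p = 0.788), just above baseline, while the library left out had 109.5 CPM. Tbx3 overlapped, with 321.8, 368.5 and 352.6 CPM against 325.2 and 241.3 CPM, and had 211.3 CPM in the library left out (log2FC = -0.29, adjusted p = 0.784).

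Gata5 and Lmo2 had the smallest p of the members below 0 in Ajcl, and neither passed the test. Gata5 had 127.0, 134.1 and 125.0 CPM in Ajcl at baseline and 90.2 and 75.8 CPM at Day 5, with 83.3 CPM in the library left out (log2FC = -0.62, SE 0.20, adjusted p = 0.299). Lmo2 had 95.5, 89.1 and 84.9 CPM at baseline and 56.2 and 60.3 CPM at Day 5, with 56.6 CPM in the library left out (log2FC = -0.61, SE 0.21, adjusted p = 0.331). The Ajcl groups did not overlap for either gene, with or without the third library. Cldn5 had 341.1, 329.4 and 255.9 CPM at baseline and 220.4 and 126.9 CPM at Day 5 (log2FC = -0.83, SE 0.33, adjusted p = 0.413), but the library left out, with 271.4 CPM, lay within the baseline range. Ehd3 overlapped, with 2198, 2451 and 2347 CPM against 2353 and 1923 CPM (log2FC = -0.12, SE 0.22, adjusted p = 0.914), and had 1499 CPM in the library left out. Of the others called in ByJcl, Ramp3 had a log2FC of 0.40 in Ajcl, Plvap 0.46, Cd34 0.29, Esam 0.26 and Klf4 0.22, none of them called. Ramp3 went from 37.6, 33.8 and 37.6 CPM to 39.2 and 55.4 CPM, and Esam from 204.9, 189.7 and 177.0 CPM to 216.4 and 235.3 CPM, both without overlap. Plvap had 72.7 to 77.3 CPM at baseline and 73.2 and 129.5 CPM at Day 5, Cd34 231.7 to 302.7 CPM and then 265.4 and 373.1 CPM, and Klf4 246.3 to 299.6 CPM and then 254.9 and 394.9 CPM. In these 3 genes the groups overlapped, and Day 5 replicate 3 stood above all baseline libraries. Plvap, Cd34 and Klf4 went below 0 without Ajcl Day 5 replicate 3.

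Set side by side, each against its own baseline, 18 members were higher and 8 lower at Day 5 in both substrains, and 11 had opposite signs. All 10 genes called in ByJcl had the same sign in Ajcl and a log2FC of larger size in ByJcl, as 27 of the 37 members did in size. Since the 10 were called in ByJcl, that order is partly fixed by their choice. The substrain by ADR interaction tested the difference itself. By edgeR it called no member and no gene at all (0% of 17002), while DESeq2 called 22 genes (0.143%) and no member. Before adjustment 2 members passed 0.05, Nostrin (difference of log2FC 0.54, SE 0.22, adjusted p = 0.620 by edgeR) and Ehd3 (-0.70, SE 0.30, adjusted p = 0.620 by edgeR). The next smallest p belonged to Ptprb (-0.59, SE 0.27), Ramp3 (0.57, SE 0.26), Cldn5 and Esam (0.43, SE 0.22). Ptprb had 691.9, 1013 and 1121 CPM at baseline and 1188 and 1157 CPM at Day 5 in Ajcl, with 465.1 CPM in the library left out, against 980.2, 1274 and 1009 CPM and then 924.7, 804.1 and 1027 CPM in ByJcl. For Cldn5 the difference was -0.84 with an SE of 0.43, and for Adgrl4 0.10 with an SE of 0.13. A difference between the substrains in the response of these genes was not detected at these standard errors.

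**Figure D4:**
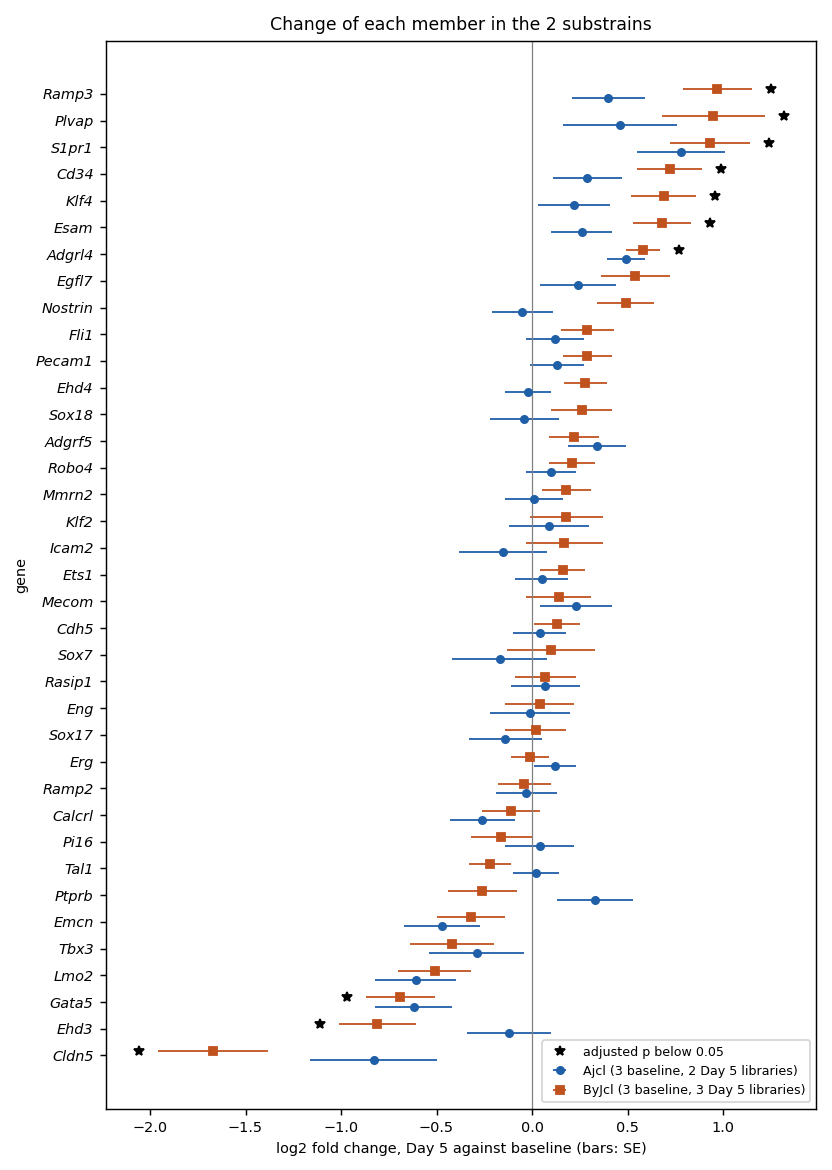
Log2 fold change from baseline to Day 5 of each gene in Ajcl (circles) and ByJcl (squares), ordered by ByJcl, with bars of 1 SE. Stars mark the 10 genes with an adjusted p below 0.05, which were all in ByJcl, from Cldn5 at -1.67 to Ramp3 at 0.97.

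The substrains were then compared at each time. At Day 5, edgeR called no member between ByJcl and Ajcl, in a comparison that called 0.165% of all genes, and 7 members had an unadjusted p below 0.05. The median log2FC of ByJcl over Ajcl was 0.20 over the members and 0.00 over all genes, and 32 of 37 members were above 0. The members share these libraries, so their signs are not separate observations. ByJcl replicate 1 was the highest Day 5 library for 17 members, and Ajcl replicate 2 and the library left out were the lowest for 13 each. Libraries did not overlap for 15 members higher and 1 lower in ByJcl, where this held for 16.6% and 16.4% of all genes (33% in either direction). With the third Ajcl library included these were 13 and 0 members, against 10.1% and 9.25% of all genes. Ramp3 had 39.2 and 55.4 CPM in Ajcl, 58.1 CPM in the library left out, and 61.0 to 98.7 CPM in ByJcl (log2FC = 0.73, SE 0.20, adjusted p = 0.167 by edgeR and 0.0265 by DESeq2). Ehd4 had 211.2 and 273.2 CPM in Ajcl, 185.2 CPM in the library left out, and 326.2 to 334.4 CPM in ByJcl (log2FC = 0.44, SE 0.13, adjusted p = 0.179 by edgeR and 0.0265 by DESeq2). These were the only 2 members called by DESeq2, against 3.49% of all genes. Nostrin was narrowly spread in Ajcl, with 90.3 and 92.7 CPM and 93.4 CPM in the library left out, and lay between 94.4 and 151.6 CPM in ByJcl (log2FC = 0.48, adjusted p = 0.260). Plvap had 73.2 and 129.5 CPM in Ajcl and 128.3 to 255.3 CPM in ByJcl, with overlap (log2FC = 0.90, from 0.55 to 1.40 over the alternatives, adjusted p = 0.254). Cd34 had a log2FC of 0.49 (from 0.26 to 0.77), Esam 0.47 (from 0.28 to 0.60) and Mmrn2, a matrix protein of vessel walls, 0.36 (from 0.22 to 0.52), none of them called.

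Members lower in ByJcl at Day 5 were few. Cldn5 had 220.4 and 126.9 CPM in Ajcl and 77.6 to 158.4 CPM in ByJcl, with overlap (log2FC = -0.68, SE 0.32, adjusted p = 0.370). Ehd3 overlapped as well (log2FC = -0.47, SE 0.22, adjusted p = 0.371). Ptprb was lower in ByJcl without overlap, with 1188 and 1157 CPM against 804.1 to 1027 CPM (log2FC = -0.35, SE 0.20, adjusted p = 0.457), but the library left out had 465.1 CPM. Markers of other cells also differed between these libraries. At Day 5 the distal nephron markers summed to 811.0 to 1099 CPM in Ajcl and 96.9 to 508.5 CPM in ByJcl, the leukocyte and platelet markers to 15.9 to 52.7 CPM and 60.6 to 118.9 CPM, and the podocyte markers to 10200 to 14840 CPM and 7131 to 10810 CPM. Their part in the member values was not tested.

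At baseline, no member was called between the substrains by edgeR, where 0.159% of all genes were, nor by DESeq2, where 0.631% were. The lowest adjusted p was 0.573 and 1 member, Tal1, had an unadjusted p below 0.05. The median log2FC was 0.12 over the members and 0.01 over all genes, and 31 of 37 members were above 0. Scaled on the other pan-endothelial genes, 17 were above 0 and 18 below, with a median of 0.00. ByJcl replicate 2 was the highest baseline library for 18 members. Libraries did not overlap for 5 members higher and 0 lower in ByJcl, against 7.86% and 6.43% of all genes. Tal1 had 26.6, 26.5 and 30.4 CPM in Ajcl and 31.2, 38.4 and 30.7 CPM in ByJcl (log2FC = 0.30, SE 0.11). The adhesion receptor Adgrf5, which is strongly expressed in glomerular capillaries, had 715.9, 941.7 and 950.3 CPM in Ajcl and 994.6, 1152 and 971.5 CPM in ByJcl (log2FC = 0.29, SE 0.13, adjusted p = 0.596). Every ByJcl library was above every Ajcl library for both genes, with ByJcl replicate 2 the highest, and neither gene passed the test. Rasip1, a RAS-interacting protein needed for vessel lumens, had 94.0, 117.6 and 120.6 CPM in Ajcl and 120.6, 160.7 and 121.0 CPM in ByJcl (log2FC = 0.30, SE 0.16, adjusted p = 0.618), and the lowest ByJcl library was level with the highest of Ajcl. Among the 6 members below 0, Nostrin, Sox7 and Klf4 had the smallest p (log2FC = -0.06, -0.09 and -0.06). Nostrin had 102.6, 93.0 and 91.6 CPM in Ajcl against 84.4 to 96.8 CPM in ByJcl. Sox7 had 50.2, 51.4 and 46.6 CPM against 50.1, 51.4 and 35.5 CPM, and Klf4 had 246.3, 299.6 and 298.9 CPM against 218.6 to 296.5 CPM. The groups overlapped in all 3. The distal nephron markers summed to 522.3 to 1654 CPM in Ajcl and 135.2 to 534.7 CPM in ByJcl at baseline, with overlap. The leukocyte and platelet markers summed to 26.8 to 47.3 CPM in Ajcl and 54.6 to 94.8 CPM in ByJcl, without overlap. All 8 podocyte markers were above 0 (median log2FC 0.22), as were 6 of 8 mesangial and mural markers (median 0.22). All 7 proximal tubule markers were below 0 (median -0.60), and none of these markers was called. Their part in the member values was not tested.

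Other endothelial genes were read beside the members. Of 15 further pan-endothelial genes, none rose and 2 fell in ByJcl after ADR by edgeR (13.3%, against 10.6% of all genes). By DESeq2 1 rose and 3 fell, against 8.95% and 6.9% of all genes. The median log2FC was -0.13 against 0.16 in the members, with 4 of these genes above 0 and 9 below. Their sum did not overlap, with 5526 to 6512 CPM at baseline and 3951 to 5131 CPM at Day 5. The 2 that fell by edgeR were the VEGF receptor Flt1, from 830.9, 1003 and 788.3 CPM to 556.9, 537.6 and 726.7 CPM (log2FC = -0.54, SE 0.15, adjusted p = 0.0471), and Tmem204, from 377.0, 373.0 and 331.2 CPM to 281.7, 193.4 and 243.3 CPM (log2FC = -0.60, SE 0.16, adjusted p = 0.0318). The groups did not overlap for either gene, but Flt1 stayed below 0.05 in only 4 of 19 alternative fits and Tmem204 in 13. Kdr, with the highest CPM of this list, had 1680, 2204 and 1820 CPM and then 1472, 865.1 and 1434 CPM. Its groups did not overlap either, and edgeR did not call it. Of 8 arterial genes 2 fell by edgeR and 4 by DESeq2, where 4.83% and 6.9% of all genes did, with a median log2FC of -0.47. Sema3g, a semaphorin of arterial endothelium that podocytes also express, had 4594, 3682 and 3669 CPM at baseline and 825.5, 522.7 and 628.5 CPM at Day 5 in ByJcl (log2FC = -2.61, SE 0.28, adjusted p = 0.00120). The NOTCH ligand Dll4 had 113.1, 148.0 and 104.9 CPM and then 55.4, 29.6 and 48.5 CPM (log2FC = -1.47, SE 0.22, adjusted p = 0.00322). Both were called in all 19 alternative fits. Sema3g made up most of the arterial sum at baseline, and at 692.2 CPM per kb in Ajcl at baseline it stood above every member. In ByJcl at Day 5 its mean was 658.9 CPM, of a mean arterial sum of 1791 CPM. Without Sema3g the arterial sum was 1306 to 1590 CPM at baseline and 1016 to 1255 CPM at Day 5 in ByJcl, 1.26-fold lower in place of 3.02-fold, and the part of podocyte RNA in the values of Sema3g was not tested. Gja4 (log2FC = 0.23), Gja5 (0.12) and Bmx (0.55) of the same list were above 0 and were not called.

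Of 7 peritubular and venous genes, 1 rose and 1 fell in ByJcl by either tool (28.6% by edgeR, against 10.6% of all genes). Gpihbp1, which carries lipoprotein lipase to the capillary lumen, had 18.0, 16.2 and 18.5 CPM at baseline and 45.9, 86.8 and 53.2 CPM at Day 5 (log2FC = 1.80, SE 0.30, adjusted p = 0.00477). The apelin receptor Aplnr had 6.58, 9.78 and 7.11 CPM and then 4.61, 1.49 and 3.29 CPM (log2FC = -1.33, SE 0.34, adjusted p = 0.0310). Of the 3 lymphatic genes tested, edgeR called none and DESeq2 called 1 as lower, Lyve1. In Ajcl edgeR called no gene of these 4 lists after ADR, while DESeq2 called 1 arterial gene as lower, Sema3g, and 1 of the peritubular and venous genes as higher, Gpihbp1. Sema3g was at 2824, 4002 and 2620 CPM at baseline and 1769 and 870.5 CPM at Day 5. In Ajcl the 8 podocyte markers all had a log2FC below 0, with a median of -0.40, and edgeR called none of them, with 2 at an unadjusted p below 0.05. Apart from the podocyte markers, and 1 erythroid gene that fell in both substrains, no marker of proximal tubule, distal nephron, mesangium or leukocytes was called in either ADR comparison by edgeR or DESeq2.

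**Figure D5:**
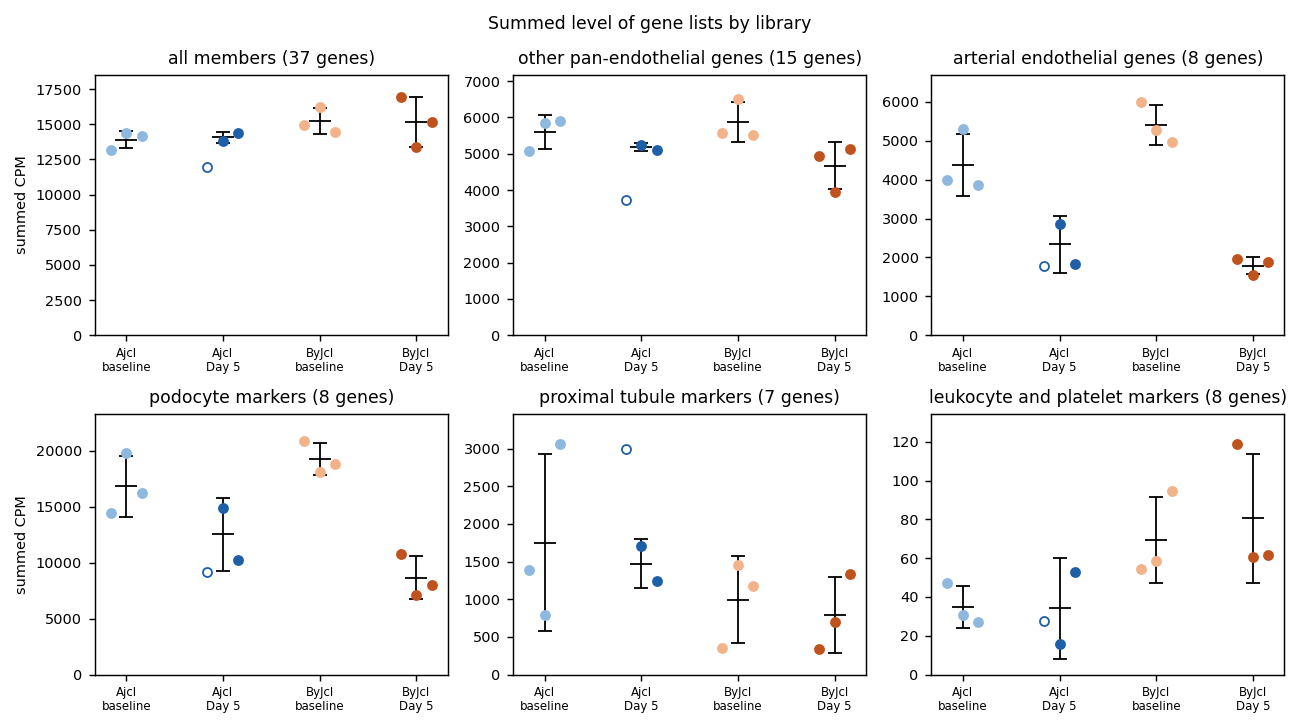
Summed CPM of 6 gene lists in every library, with the mean and SD of the filled points (n = 3, or 2 for Ajcl at Day 5) and the library left out as an open point. The member sum overlapped between baseline and Day 5 in ByJcl. The other pan-endothelial sum (5526 to 6512 against 3951 to 5131 CPM), the arterial sum (4975 to 5985 against 1538 to 1950 CPM) and the podocyte sum did not. Sema3g made up most of the arterial sum at baseline.

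The members were spread over the genome apart from 3 neighbouring pairs (GRCm39). Fli1 and Ets1 lie 93.4 kb apart on chromosome 9, Robo4 and Esam 112.9 kb apart on the same chromosome, and Icam2 and Pecam1 264.7 kb apart on chromosome 11. Of these 6 genes only Esam was called in ByJcl after ADR, and its neighbour Robo4 had a log2FC of 0.21 (adjusted p = 0.287). The called genes Cldn5 (chromosome 16, 18595597 to 18597012, plus strand), Ehd3 (chromosome 17, 74111129 to 74139089, plus strand) and Gata5 (chromosome 2, 179966880 to 179976509, minus strand) are protein-coding genes on separate chromosomes, whereas Adgrl4 (151143374 to 151250723, plus strand) and S1pr1 (115504071 to 115508721, minus strand) are both on chromosome 3.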

How the data were processed

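Poly(A) RNA of glomeruli isolated with magnetic beads was sequenced in 12 libraries. The values deposited by the authors are whole-number read counts per gene symbol, neither normalized nor pooled. Per the study's methods, reads were trimmed with Trimmomatic, aligned to GRCm39 with STAR and counted with featureCounts. The gene annotation and the strand setting are not given in the sources used here. Between 77.1% and 82.9% of counts from 1 to 49 were even in each library, so counts were also halved as an alternative. With at least 42198416 counts in a library, precision is limited by the number of libraries. Libraries of a group differed by more than counting noise.

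Counts were analysed in R 4.3.3 with edgeR 4.0.16 (filterByExpr by group, TMM, glmQLFit and glmQLFTest, 1 coefficient per group, 11 libraries, 7 residual degrees of freedom). P-values were adjusted by Benjamini-Hochberg over 17002 genes and called below 0.05, in 5 contrasts. Standard errors are the log2FC divided by the root of the F statistic. The procedure was tested on simulated data. Alternatives were DESeq2 1.42.0, RLE factors, total counts, scaling on 15 other pan-endothelial genes, a minimum of 10 counts, halved counts, all 12 libraries, a replicate block, and leaving out each fitted library. Lengths are those of Ensembl canonical transcripts in GENCODE vM39, and promoter windows come from RefSeq.

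The members and all gene lists were chosen with earlier results of these data known. Values per library, or their range, are given for members called in any contrast, for the 3 smallest p in each direction of a contrast, and for Pecam1, Cdh5, Emcn, Ehd3, Erg, Gata5 and Tbx3. Further members with an unadjusted p near 0.05 are named from their values, and of the other endothelial lists the genes called by edgeR are named. Not all of those called by DESeq2 alone are named. Samples were grouped by the labels.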

Additional observations from a re-analysis of the deposited data

How the results depend on the processing

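All 10 members called in ByJcl after ADR kept their direction in the 19 alternatives. Some uncalled members did not, with either sign seen over the alternatives in 18 of the 37 at baseline, 13 at Day 5, 19 in Ajcl, 10 in ByJcl and 15 in the interaction. DESeq2 called 101 genes at baseline, 535 between substrains at Day 5, 301 in Ajcl and 22 in the interaction, against 27, 28, 53 and 0 by edgeR, and called 2 members at Day 5 and 1 in Ajcl. Scaling on other pan-endothelial genes shifted the median of all genes by -0.11 at baseline and 0.12 in ByJcl, called 13 genes at baseline, and moved the member median to 0.00 at baseline and 0.29 in ByJcl, where it called 1055 genes as higher and 412 as lower against 978 and 822. All 12 libraries gave 72 genes at Day 5 and 1197 in ByJcl. Same-numbered libraries did not deviate together (correlations from -0.391 to 0.533, 7 of 18 over 0.1), so the numbers were not used as pairs. The replicate block called 26 genes in Ajcl and 1592 in ByJcl, and Plvap was not called under it (adjusted p = 0.0648, edgeR).

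Leaving out each library gave 12 to 29 genes at baseline, 9 to 218 at Day 5, 11 to 180 in Ajcl, 680 to 2056 in ByJcl and 0 to 5 in the interaction. Members called were 0 to 0, 0 to 1, 0 to 1, 3 to 11 and 0 to 0 in that order, and the member medians 0.08 to 0.17, 0.18 to 0.32, -0.09 to 0.15, 0.11 to 0.21 and 0.03 to 0.19. The lone call at Day 5 came without Ajcl Day 5 replicate 3 and that in Ajcl without ByJcl Day 5 replicate 3. An arm left with 1 library was assumed to vary like the other groups. Signs turned with single libraries left out. At baseline Sox7 ranged from -0.18 to 0.06 and Klf4 from -0.18 to 0.06, at 0.06 without ByJcl baseline replicates 3 and 1 respectively, and Klf4 was at 0.00 without Ajcl baseline replicate 2. In Ajcl, Cd34 ranged from -0.01 to 0.51, Klf4 from -0.16 to 0.50, Plvap from -0.04 to 0.81 and Egfl7 from -0.05 to 0.45, each lowest without Ajcl Day 5 replicate 3 and highest without replicate 2. Cdh5 was at -0.00 without replicate 3. In Ajcl, Cdh5 also turned with all 12 libraries (-0.15) and without Ajcl baseline replicate 1 (-0.07), Erg with all 12 libraries (-0.00), and Nostrin with endothelial scaling (0.01) and the block (0.00). In ByJcl, Erg turned with DESeq2 and RLE (0.01), total counts (0.03), endothelial scaling (0.11), all 12 libraries (0.00), and without Ajcl baseline replicate 1 (0.00), ByJcl baseline replicate 1 (0.00) or 2 (0.03), or ByJcl Day 5 replicate 2 (0.05). Left out after the sums had been seen, Ehd3 turned the ratio of baseline to Day 5 of the trafficking sum in ByJcl from 1.48 to 0.821. Beyond the smaller number of libraries left, the cause of these changes was not tested.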
